A study of Mus musculus with 3 samples.

Results

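The genes described here carry out antigen presentation on major histocompatibility complex (MHC) class I: the heavy chains H2-K1 and H2-D1, their light chain B2m, the peptide transporter subunits Tap1 and Tap2, the loading factor Tapbp, the trimming peptidase Erap1, the immunoproteasome subunits Psmb8 and Psmb9, and the transcriptional activator Nlrc5. The 10 genes were chosen by name, from their known place in the pathway, out of 12880 genes in the deposited tables. Earlier results of these data were known when they were chosen. All 10 had a value in every table. RNA was sequenced from lung macrophages of LysM-GFP mice on the C57BL/6 background, aged 6 to 8 weeks, in which acute lung injury was set off with a nebulized saline solution of lipopolysaccharide (LPS, a bacterial cell wall component) at 1 mg/ml. The 3 libraries came from 0 h, 4 h and 24 h, 1 library per time point, and the sources used here do not say whether the 0 h mice inhaled saline or how many mice went into a library. The LysM-GFP allele puts green fluorescent protein under the lysozyme M gene, which is active in monocytes, macrophages and neutrophils. Cells were sorted as GFP-positive, Ly6g-negative to remove neutrophils, and CD64-positive. The headings of the deposited values name GFP and CD11b (the product of Itgam).

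Class I molecules show peptides cut from a cell's own proteins to CD8+ T cells. The proteasome cuts proteins in the cytosol, and cells exposed to interferon exchange its constitutive catalytic subunits for immunoproteasome subunits. Tap1 and Tap2 together pump the peptides into the endoplasmic reticulum, Erap1 trims them, tapasin (Tapbp) holds the empty heavy chain beside the transporter, and the loaded heavy chain leaves with beta-2-microglobulin (B2m). Nlrc5 is the class I counterpart of Ciita, the activator of class II genes. Alveolar macrophages, the resident phagocytes of the airspace, carry class I molecules constantly.

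The tables' genes held 24825976 reads in the 0 h library, 20379236 in the 4 h library and 25135476 in the 24 h library. Levels are given, always in that order, as normalized counts, the recovered reads divided by a size factor common to the 3 libraries, and a gene is called higher or lower where the plain ratio of 2 libraries reached 2-fold. With 1 library per time point there was no replicate spread and no test, so each interval covers counting error only (95%) and a difference is one between these libraries. Of the fixed markers, 10 of 12 alveolar macrophage genes were lower at 4 h, where 14.3% of all genes were (summed levels of 931372, 304129 and 597187). Classical monocyte markers were higher at 4 h in 7 of 8 cases (103459, 449398 and 84806), where 15.2% of all genes were. So were all 10 neutrophil markers with values at both times, of 11 measured (5033, 39733 and 8141). Summed dendritic cell markers were 1224, 3935 and 2088, with 4 of 9 higher and 2 lower at 4 h. T, B and NK cell markers summed to 151, 212 and 240. Only 4 of these 9 had values at both 0 h and 4 h, with 3 higher and 1 lower. For these and the neutrophil markers the 0 h sum thus covers fewer genes than the later sums. Endothelial and fibroblast markers summed to 994, 1844 and 1546, with 2 of 8 higher and 0 lower at 4 h. Lung epithelial markers summed to 15120, 15660 and 15251. Of the 8 epithelial markers, 2 were higher at 4 h (Scgb1a1, 91, 3977 and 105; Krt8, 17, 43 and 14) and 2 lower (Epcam, 953, 159 and 334; Cdh1, 2179, 710 and 916). Of 8 macrophage markers, 2 (Itgam and Fcgr1) were higher and 1 (Mertk) lower at 4 h (summed levels of 93550, 117870 and 81307), while Lyz2, also on that list and the gene that holds the GFP allele, had 40, 20 and 17 normalized counts. Sex-linked genes also differed by library: Xist had 13705 reads at 0 h against 4 and 1 later, and Ddx3y had 4 reads at 0 h against 3994 and 2357. The part of cell makeup and of sex in the values below was not tested, and in such bulk samples a change in cell numbers and a change in RNA per cell cannot be told apart.

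The pathway did not move as a block. At 4 h the activator Nlrc5 and the transporter subunit Tap1 were at least 2-fold higher than at 0 h, the other loading and processing genes were modestly higher, and the heavy chains H2-K1 and H2-D1 were slightly lower. At 24 h Nlrc5 was below its starting level and Tap1 was close to it, whereas B2m, Psmb8 and Psmb9 were at their highest, except that with scaling to ribosomal protein genes, an alternative, their 24 h levels lay below those at 4 h (log2 ratios of -0.39, -0.18 and -0.29). At 4 h against 0 h, 2 of the 10 genes were called higher, where 15.2% of all genes tested were, and 0 were called lower, where 14.3% of all genes were. Their median log2 ratio was 0.28, with a range from -0.25 to 1.87, beside a median of 0.00 over all genes. At 24 h against 0 h none of the 10 was called in either direction (4.95% of all genes higher, 9.10% lower), and the median was 0.13. With ribosomal protein scaling the median was -0.37, beside -0.50 over all genes. Under it 1 of the 10, Nlrc5, was called lower, as were 2813 of all 12481 genes. At 24 h against 4 h, 0 were called higher (14.4% of all genes) and 1, Nlrc5, was called lower (17.9% of all genes), with a median of -0.08. With ribosomal protein scaling 3 were called lower (Nlrc5, Tap1 and Erap1), as were 4123 of all 12684 genes. The median of the 10 was then -0.63, beside -0.54 over all genes. Scaled to total reads it was 0.24, beside 0.32 over all genes. Most of the 10 stayed within 1.5-fold in either direction, 8, 9 and 7 of them in these 3 comparisons, where 51.0%, 67.1% and 45.3% of all genes did.

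**Figure D1:**
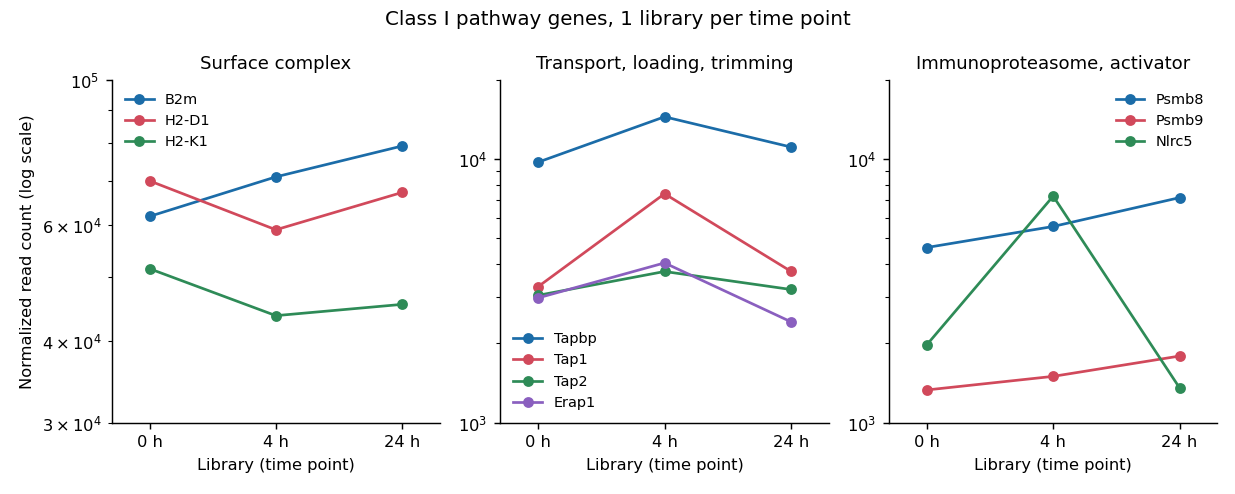
Normalized read counts (log scale) of the 10 class I pathway genes in the 0 h, 4 h and 24 h libraries, 1 point per library and no error bars because each time point has 1 library. Nlrc5 goes from 1976 to 7237 to 1357 and Tap1 from 3284 to 7390 to 3754, while B2m, Psmb8 and Psmb9 are highest at 24 h on this scale, though not with scaling to ribosomal protein genes.

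Nlrc5, the activator, had the widest swing of the 10. It had 1976 normalized counts at the start, 7237 after 4 h and 1357 after 24 h. The 4 h library stood alone at the high end and the 24 h library lay below the starting level. The ratio at 4 h against 0 h was 3.66-fold (3.48 to 3.85), above 94.5% of all genes. At 24 h against 4 h Nlrc5 was 5.33-fold lower (5.05 to 5.63), a ratio that only 3.6% of genes were below. Against 0 h the 24 h level was 1.46-fold lower (1.36 to 1.55). In the authors' deposited table of 24 h against 4 h, Nlrc5 was the only one of the 10 genes marked significant, with a shrunken log2 fold change of -1.68 (SE 0.80), and 4.44% of the genes in that table carried the mark. None of the 10 was marked in the authors' deposited tables at 4 h against 0 h (5.16% of genes marked) or at 24 h against 0 h (3.16%), and for Nlrc5 at 4 h their log2 fold change was 1.41 (SE 0.80). Nlrc5 lies on chromosome 8 (mm10, 94472763 to 94527272, plus strand).

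Ciita, its class II counterpart, had 1003, 1608 and 686 normalized counts. The ratio of Nlrc5 to Ciita reads within a library, which no scaling of libraries can alter, was 1.97, 4.50 and 1.98 in the 3 libraries. The ratio was thus 2.28-fold higher (2.08 to 2.51) at 4 h, and at 24 h it was 1.00 times its starting value (0.899 to 1.12). Nlrc5 and Ciita were both highest at 4 h and lowest at 24 h, with the wider excursion in Nlrc5.

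Tap1 and Tap2, the subunits of the peptide transporter, differed in size of change. Tap1 had 3284, 7390 and 3754 normalized counts. Tap2 had 3044, 3748 and 3203. Starting from similar counts, Tap1 was 2.25-fold higher at 4 h (2.16 to 2.35; above 87.9% of all genes) and Tap2 1.23-fold higher (1.17 to 1.29). The authors' deposited log2 fold change of Tap1, which is shrunken, was 0.91 (SE 0.76), short of 2-fold, and scaled to total reads its log2 ratio was 1.01. The Tap1 to Tap2 read ratio was 1.08, 1.97 and 1.17 in the 3 libraries, a 1.83-fold change at 4 h (1.71 to 1.95). By 24 h Tap1 was 1.97-fold lower than at 4 h (1.89 to 2.05), just short of the 2-fold threshold. Tap2 was 1.17-fold lower than at 4 h (1.12 to 1.23), and this small difference changed sign when libraries were scaled to total reads (log2 ratio 0.10). Against 0 h, the 24 h library held 1.14-fold more Tap1 (1.09 to 1.19) and 1.05-fold more Tap2 (1.00 to 1.10), and both signs turned with scaling to ribosomal protein genes (log2 ratios of -0.31 and -0.42).

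Tapbp, which bridges the heavy chain and the transporter, had 9737, 14471 and 11114 normalized counts. It was 1.49-fold higher at 4 h (1.45 to 1.53) and 1.14-fold higher at 24 h (1.11 to 1.17), the latter turning to a log2 ratio of -0.31 with ribosomal protein scaling. Erap1, the trimming peptidase of the endoplasmic reticulum, had 2976, 4040 and 2416. Its 4 h level was 1.36-fold higher (1.29 to 1.43) and its 24 h level was 1.23-fold lower (1.17 to 1.30) than at 0 h. Erap1 and Nlrc5 were thus highest at 4 h and lowest at 24 h, while Tap1, Tap2 and Tapbp were highest at 4 h and lowest at 0 h, or lowest at 24 h with ribosomal protein scaling.

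Psmb8 and Psmb9, the immunoproteasome subunits also known as LMP7 and LMP2, were highest at 24 h, with the exception of ribosomal protein scaling given below. Psmb8 had 4621, 5553 and 7142 normalized counts, and Psmb9 had 1332, 1500 and 1791. At 4 h Psmb8 was 1.20-fold higher (1.15 to 1.25) and Psmb9 1.13-fold higher (1.04 to 1.22). At 24 h Psmb8 was 1.55-fold above 0 h (1.49 to 1.60; above 88.2% of all genes). Psmb9 at 24 h was 1.35-fold above 0 h (1.26 to 1.44), but its log2 ratio was -0.07 with ribosomal protein scaling, under which that of Psmb8 was 0.13. From 4 h to 24 h both were higher (1.29-fold and 1.19-fold), and both signs turned with that scaling (log2 ratios of -0.18 and -0.29).

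Psmb8 replaces Psmb5 in the immunoproteasome, Psmb9 replaces Psmb6, and Psmb10 replaces Psmb7, so each pair was compared within a library. Psmb5 had 529, 442 and 764 normalized counts, Psmb6 2896, 2760 and 3187, and Psmb7 2238, 2140 and 2573. Psmb10, the remaining immunoproteasome subunit, had 2413, 3083 and 4135. The Psmb8 to Psmb5 read ratio was 8.73, then 12.6, then 9.35. It was 1.44-fold higher at 4 h (1.25 to 1.66), and the 24 h interval included no change (1.07, 0.959 to 1.20). The Psmb9 to Psmb6 ratio was 0.460, 0.544 and 0.562, with a change of 1.18-fold at 4 h (1.08 to 1.30) and 1.22-fold at 24 h (1.13 to 1.33). The Psmb10 to Psmb7 ratio was 1.08, 1.44 and 1.61, with a change of 1.34-fold at 4 h (1.23 to 1.45) and 1.49-fold at 24 h (1.39 to 1.60). All 3 pairs leaned to the immunoproteasome subunit at 4 h, and at 24 h Psmb9 and Psmb10 kept that lean. The level of Psmb5 itself at 24 h was 1.44-fold above 0 h (log2 ratio 0.53), a value that depends on the scaling of libraries. Ribosomal protein scaling moved the median of all genes to -0.50 in that comparison.

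**Figure D2:**
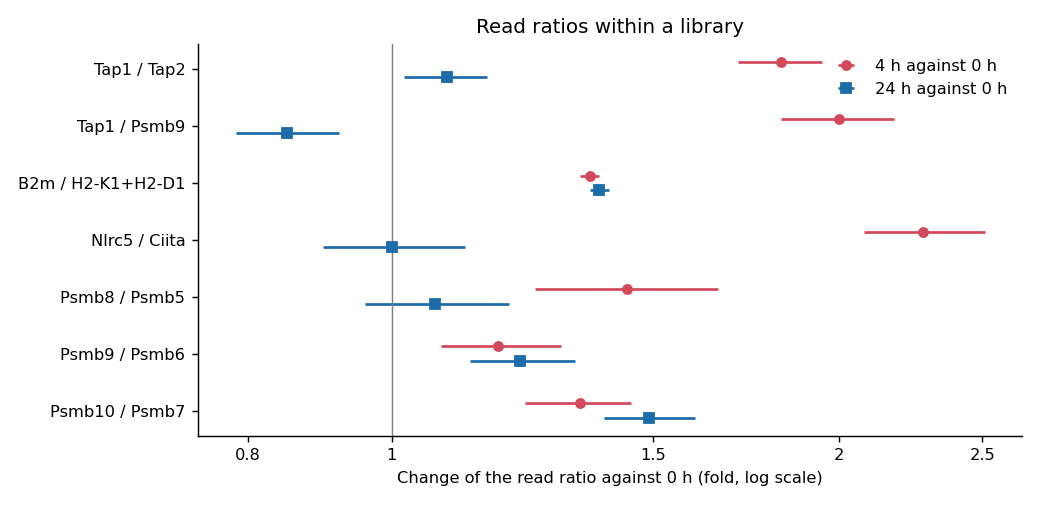
Fold change, against 0 h, of the ratio of reads of 2 genes within a library (log axis), with 95% counting intervals as bars; circles are 4 h and squares 24 h. Nlrc5 to Ciita and Tap1 to Tap2 reach 2.28-fold and 1.83-fold at 4 h and return to 1.00 and 1.09 at 24 h, while B2m to heavy chain stays at 1.36-fold and 1.38-fold.

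The surface complex itself was abundant throughout. H2-K1 had 51521, 43694 and 45460 normalized counts, and H2-D1 had 70128, 59063 and 67344. B2m had 61901, 71116 and 79261. Both heavy chains were lowest at 4 h, while B2m was lowest at 0 h; with ribosomal protein scaling all 3 were lowest at 24 h (log2 ratios of -0.49, -0.35 and -0.39 against 4 h for H2-K1, H2-D1 and B2m). H2-K1 was 1.18-fold lower at 4 h (1.16 to 1.20) and H2-D1 1.19-fold lower (1.17 to 1.20), and these signs held under all 3 alternative scalings. At 24 h H2-K1 was 1.13-fold lower than at 0 h (1.12 to 1.15). H2-D1 was 1.04-fold lower (1.03 to 1.05), a sign that turned with scaling to total reads (log2 ratio 0.11). B2m was 1.15-fold higher at 4 h (1.14 to 1.16) and 1.28-fold higher at 24 h (1.27 to 1.29), the latter turning to a log2 ratio of -0.14 with ribosomal protein scaling. The ratio of B2m reads to the sum of H2-K1 and H2-D1 reads does not rest on scaling. It was 0.509, 0.692 and 0.703, a change of 1.36-fold (1.34 to 1.38) that was still 1.38-fold at 24 h (1.36 to 1.40).

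H2-K1, H2-D1 and B2m together made up 0.792%, 0.672% and 0.930% of all reads, and the other 7 genes 0.116%, 0.170% and 0.149%. The share of the surface complex was thus lowest at 4 h, and that of the other 7 genes, the activator Nlrc5 among them, was highest. Nlrc5 held 2116, 5701 and 1652 of the 28881, 34616 and 37456 reads of these 7 genes. Per kilobase of transcript, the highest level was that of B2m (71978, 82693 and 92164 normalized counts per kb), followed by H2-D1 (33363, 28099 and 32038) and H2-K1 (31823, 26988 and 28079). Tapbp had 3360, 4993 and 3835 per kb and Psmb8 2838, 3411 and 4387. Tap1 followed with 1112, 2503 and 1271 per kb, Psmb9 with 985, 1110 and 1325, and Tap2 with 884, 1089 and 931. Erap1 (527, 716 and 428 per kb) and Nlrc5 (261, 955 and 179) had the lowest levels at 0 h and 24 h. At 4 h the per-kilobase level of Nlrc5 lay above that of Erap1, and Tap1 lay above Psmb9 at 0 h and 4 h and below it at 24 h. The heavy chains share sequence with their relatives: 8.8% of the 50-base stretches of the H2-K1 transcript and 14.3% of those of H2-D1 occur in another gene, so their counts depend on how shared reads were assigned, which is not given in the sources used here.

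**Figure D3:**
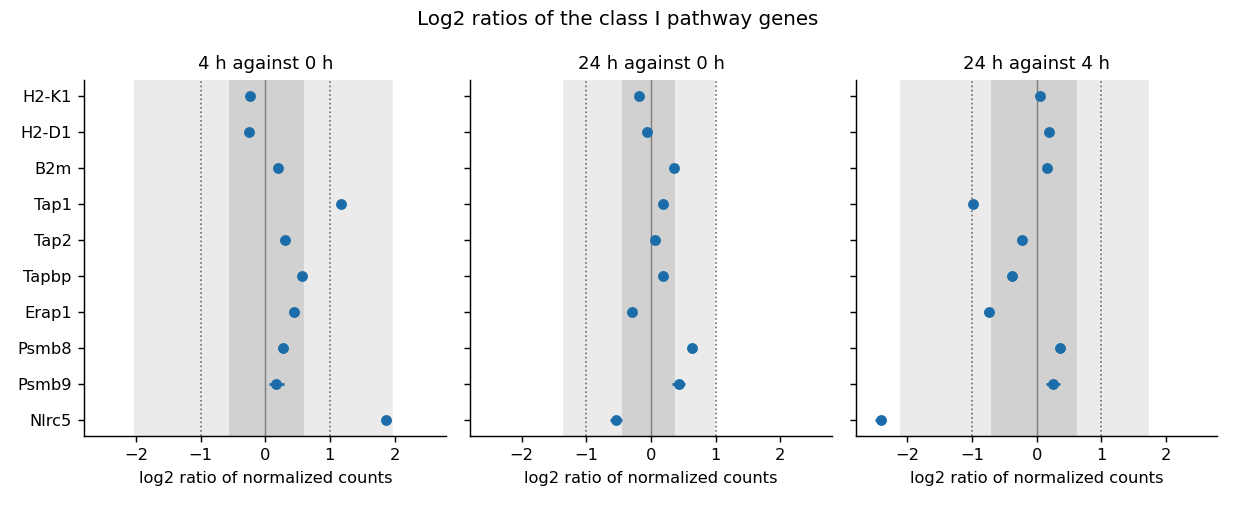
Log2 ratio of normalized counts for each of the 10 genes (points, with 95% counting intervals that are mostly narrower than the point) in the 3 comparisons of libraries. Dark and light grey bands hold the central 50% and 90% of all genes tested and dotted lines mark 2-fold; Nlrc5 in the first (1.87) and last (-2.41) comparison and Tap1 in the first (1.17) lie past a dotted line.

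Of the 10 genes, 7 lie on chromosome 17, the mouse MHC chromosome, and 4 of them are neighbours. H2-K1 (33996012 to 34000333, minus strand), Tapbp (33919478 to 33929290, plus strand) and H2-D1 (35263094 to 35267497, plus strand) lie apart from these on the same chromosome. B2m is on chromosome 2 (122147687 to 122153082, plus strand) and Erap1 on chromosome 13 (74639872 to 74691875, plus strand). Psmb9, Tap1, Psmb8 and Tap2 sit in 34.2 kb with 0 other measured genes between them. Psmb9 (34182099 to 34187330, minus strand) and Tap1 (34187556 to 34197225, plus strand; mm10, starts counted from 1) start back to back, with 225 bases between the genes as deposited. At 4 h their log2 ratios were 0.17 for Psmb9, 1.17 for Tap1, 0.27 for Psmb8 and 0.30 for Tap2. The Tap1 to Psmb9 read ratio was 2.47, 4.93 and 2.10, a change at 4 h with an interval of 1.83-fold to 2.18-fold. In GENCODE, which also holds longer transcripts than the deposited gene positions, exons of Tap1 and Psmb9 overlap on opposite strands over 212 bases, 15.7% of the Psmb9 transcript, and reads there cannot be split without strand information. Overlaps with other annotated genes also covered 23.5% of the Tapbp transcript, 19.8% of Tap2, 14.8% of Erap1 (by Cast) and 11.4% of Psmb8. Class II genes flank the 4. On the Tap2 side none was called at 4 h. On the Psmb9 side H2-DMa (7011, 2758 and 6016 normalized counts), H2-DMb2 (171, 60 and 131) and H2-Oa (76, 37 and 70) were called lower, with log2 ratios of -1.35, -1.50 and -1.02. H2-DMb1, the measured class II gene nearest to Psmb9, was not called (3943, 2681 and 3439, log2 ratio -0.56). Over all genes, 14.3% were called lower at 4 h. H2-DMa and H2-DMb2 encode subunits of the class II peptide editor, and H2-Oa a subunit of its inhibitor.

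**Figure D4:**
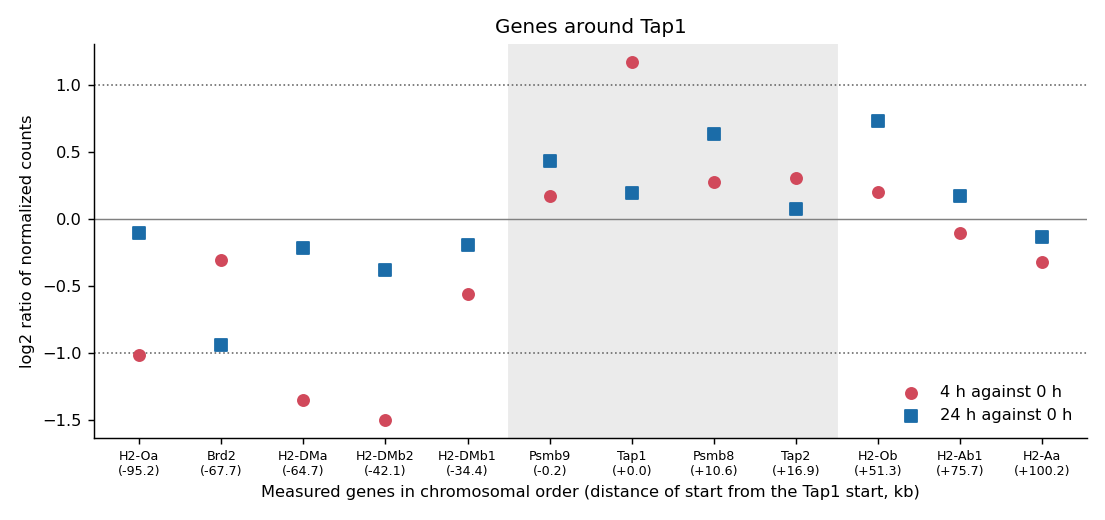
Log2 ratios of the 12 measured genes around Tap1, in chromosomal order, with the distance of each gene's start from the Tap1 start in kb under its name; circles are 4 h against 0 h, squares 24 h against 0 h, and dotted lines mark 2-fold. Inside the shaded stretch of 4 class I processing genes, Tap1 is past the line at 4 h (1.17) and its neighbours lie between 0.17 and 0.30.

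The stretch between Psmb9 and Tap1 is shown because Tap1 and Psmb9, whose ratio differed at 4 h, start at its ends, and the B2m, H2-K1 and H2-D1 stretches because these 3 genes form the surface complex but differed in direction. Sequences are from RefSeq promoter windows (GRCm38.p6), each read 5′ to 3′ on the strand named and ending at or just before an annotated start (for the first, starts at both ends); 8 of the 10 genes had a window, and Tap2 and Nlrc5 did not. Capitals mark matches, on either strand, to the CCAAT box (CCAAT), the core of the cyclic AMP response element (TGACG), the NF-kappaB consensus, and 2 forms of the interferon response element core, GAAANNGAA and GAANNGAAA. The second form was added after the windows were seen.
Psmb9 to Tap1, chr17:34187331-34187555, plus strand: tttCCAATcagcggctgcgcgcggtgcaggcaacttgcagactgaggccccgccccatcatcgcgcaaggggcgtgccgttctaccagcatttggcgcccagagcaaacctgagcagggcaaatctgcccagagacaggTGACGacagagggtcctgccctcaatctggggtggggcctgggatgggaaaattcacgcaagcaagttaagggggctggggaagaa
B2m, chr2:122147487-122147686, plus strand: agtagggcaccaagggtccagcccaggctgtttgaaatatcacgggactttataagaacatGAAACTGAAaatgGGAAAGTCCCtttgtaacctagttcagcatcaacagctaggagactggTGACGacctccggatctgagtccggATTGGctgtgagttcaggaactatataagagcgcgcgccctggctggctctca
H2-K1, chr17:34000348-34000547, minus strand: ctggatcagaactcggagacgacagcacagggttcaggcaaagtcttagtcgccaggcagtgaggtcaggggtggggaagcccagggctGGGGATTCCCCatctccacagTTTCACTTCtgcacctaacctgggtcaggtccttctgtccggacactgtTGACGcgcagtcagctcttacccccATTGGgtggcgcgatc
H2-D1, chr17:35262894-35263093, plus strand: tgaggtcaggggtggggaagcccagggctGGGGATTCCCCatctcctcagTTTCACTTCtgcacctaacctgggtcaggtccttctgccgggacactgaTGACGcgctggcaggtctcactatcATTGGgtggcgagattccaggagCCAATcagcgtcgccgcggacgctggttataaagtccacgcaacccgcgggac

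The H2-K1 and H2-D1 stretches were near copies, with 91.4% identity over 139 aligned positions, and their levels at 4 h differed from 0 h by 1.18-fold and 1.19-fold in the same direction. In both, 2 overlapping NF-kappaB matches are followed by the core GAANNGAAA on the other strand, then by a TGACG and a CCAAT on the other strand. The B2m stretch holds the core GAAANNGAA beside an NF-kappaB match, then TGACG and CCAAT. The stretch between Psmb9 and Tap1 holds a CCAAT near its Psmb9 end and a TGACG, and no match to the other motifs. In the 250 bases before the start, over the 8 genes, 3 held the NF-kappaB consensus (3.75% of 27025 such windows of mouse genes), 6 a CCAAT (34.5%) and 5 a TGACG (17.9%). The core GAAANNGAA was in 2 (B2m and Erap1; 7.16% of all windows), GAANNGAAA in 2 (6.34%) and the interferon-gamma activated site TTCNNNGAA in 1 (Psmb8; 7.18%). The Psmb9 and Tap1 windows share the stretch between them, so its CCAAT and TGACG count for both, and H2-K1 and H2-D1 are near copies, so the 8 windows are not separate sequences. These are matches of letters and were not set against binding data.

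Other class I and class I-like genes, among them non-classical molecules that present lipids or vitamin metabolites or that bind antibody, spread widely around H2-K1 and H2-D1. At 4 h 4 of 16 measured were called higher (15.2% of all genes) and 3 lower (14.3% of all genes), with a median log2 ratio of 0.04. Fcgrt, the neonatal Fc receptor that also pairs with B2m, had 7974, 1121 and 6664 normalized counts, 7.11-fold lower at 4 h. Mr1, which presents vitamin B metabolites, had 967, 239 and 674, and Cd1d1, which presents lipids, had 1529, 439 and 1613. The higher side held Procr (372, 1428 and 245), the class I-like endothelial protein C receptor, which is not part of the presentation pathway. It also held H2-T24 (868, 3040 and 876, 3.50-fold higher at 4 h), H2-M2 (389, 1056 and 167) and H2-Q10 (8.40, 96 and 37). Cd1d1, H2-M2 and H2-Q10 were named after their values were seen. H2-T23, the mouse Qa-1 molecule, had 5185, 5864 and 7011. H2-Q8 had 887, 829 and 154, lower at 24 h. Sequence shared among these other heavy chains was not measured, so their reads may be assigned uncertainly to an extent that is not known.

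The list of peptide loading chaperones also holds subunits of the Sec61 protein channel. Of its 13 genes, 1 was called higher at 4 h (15.2% of all genes) and 0 lower (14.3% of all genes). The 1 was the channel subunit Sec61g (8.40, 23 and 17 normalized counts), named after its values were seen. It had 9 reads at 0 h, and the interval of its ratio at 4 h was 1.16 to 6.87. No loading chaperone was called at 4 h. Calr had 31069, 23926 and 26393, Canx 15192, 16772 and 12599, and Pdia3 19427, 18442 and 23896. These 3 hold and fold the heavy chain before and during loading. Tapbpl, a peptide editor related to tapasin, had 1033, 1210 and 870, near its starting level beside the 1.49-fold of Tapbp. Among 11 trimming peptidases, 1 was called higher at 4 h (15.2% of all genes) and 1 lower (14.3% of all genes), with a median log2 ratio of 0.02. The 1 higher was Lnpep, the endosomal relative of Erap1, with 3463, 8223 and 1165. The 1 lower was Thop1, which destroys cytosolic peptides, with 392, 161 and 349. Tpp2 had 2170, 4337 and 2422, a ratio just under 2-fold at 4 h. The list of class I turnover at the surface and cross-presentation has 14 genes, Lnpep among them. At 4 h 3 were called higher (15.2% of all genes) and 1 lower (14.3% of all genes), with a median log2 ratio of 0.01. Besides Lnpep, these were Rab27a, which moves secretory vesicles (691, 2270 and 970), the ubiquitin ligase March1 (2205, 6112 and 2807) and, lower, March9 (42, 11 and 24; named after its values were seen). Wdfy4, needed for cross-presentation by dendritic cells, had 11682, 6484 and 5021.

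Most other proteasome subunits had 24 h levels slightly above those at 0 h on the median-of-ratios scale, short of a call. The 11 other core (20S) subunits had a median log2 ratio of 0.09 at 4 h and 0.44 at 24 h, and the 20 cap (19S) subunits -0.03 and 0.24. At 24 h the core subunits ranged from 0.25 to 0.59 and the cap subunits from -0.35 (Psmd11) to 0.59 (Psmc6). No gene of either group was called in any comparison, where 4.95% to 17.9% of all genes were called in a given direction. The shift of all genes under ribosomal protein scaling at 24 h, -0.50, is larger than these medians. Psme1 and Psme2, which form the interferon-inducible activator ring, had 3732, 4727 and 4703 and 1145, 1980 and 1751 normalized counts. Psme4, the activator PA200, had 1998, 5725 and 2437. It was the 1 of 11 activator, assembly and immunoproteasome genes called higher at 4 h (15.2% of all genes). The Psmb8 and Psmb9 log2 ratios at 24 h, 0.63 and 0.43, thus stood beside 0.44 for the core subunits, and that of Psmb10 was 0.78.

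Many regulators of class I transcription were, like Nlrc5, highest at 4 h. At 4 h 7 of 20 were called higher (15.2% of all genes) and 0 lower (14.3% of all genes), with a median log2 ratio of 0.65. At 24 h against 4 h 11 of 20 were called lower (17.9% of all genes), with a median of -1.12. Irf1, an interferon-induced activator of class I promoters, had 7800, 23126 and 5629 normalized counts, highest at 4 h and lowest at 24 h. Stat2 (2103, 9841 and 2264) and Irf7 (2582, 12162 and 5175), both of the type I interferon response, were 4.68-fold and 4.71-fold higher at 4 h. Rfx5, a subunit of the complex that binds class I and class II promoters, had 623, 718 and 311. Of 9 interferon receptor chains, their kinases and inhibitors, 3 were called higher at 4 h (15.2% of all genes) and 0 lower (14.3% of all genes). The 3 were Jak2 (1689, 9815 and 2236), Socs1 (113, 467 and 187) and Ifnar1 (2433, 6078 and 2356), the last named after its values were seen. Of the MHC class II genes 0 of 11 were called higher at 4 h (15.2% of all genes) and 3 lower (14.3% of all genes), with a median of -0.32. Cd74, the invariant chain, had 70035, 57949 and 61491.

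**Figure D5:**
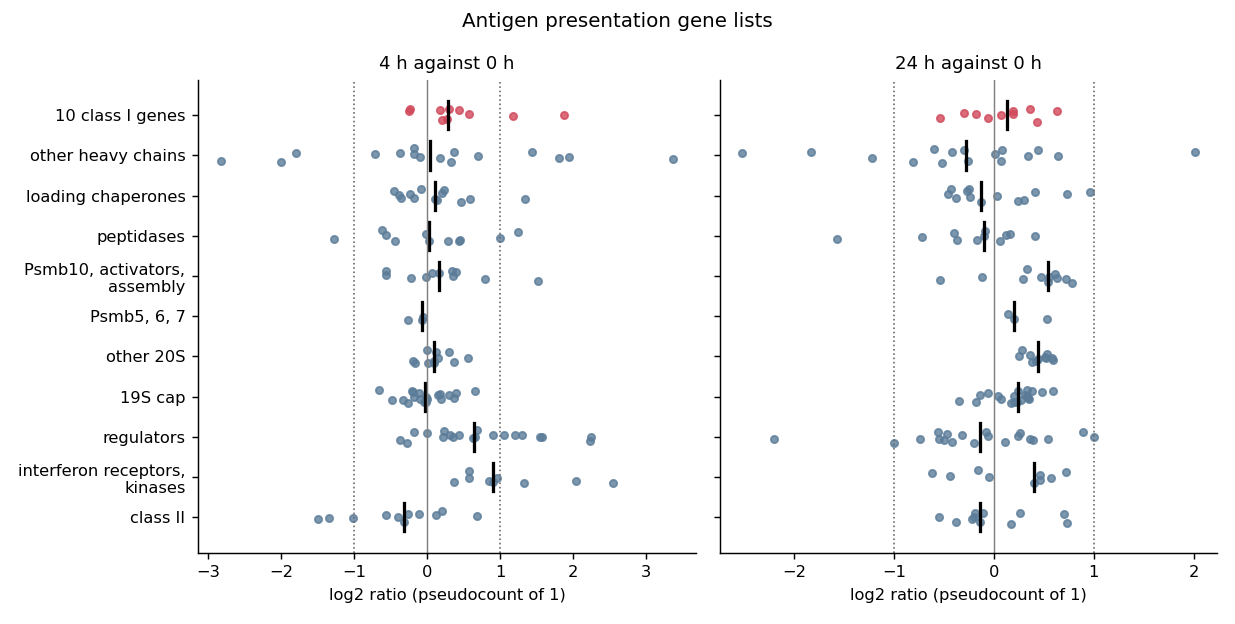
Log2 ratios (pseudocount of 1 normalized count) of the class I pathway genes and 10 of the 11 related lists at 4 h and 24 h against 0 h, 1 point per gene, with black bars at the medians and dotted lines at 2-fold. At 4 h the medians of the regulators (0.65) and the interferon receptor list (0.90) are the farthest to the right, and that of class II (-0.32) is the farthest to the left.

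The genes with the pattern most like that of the class I pathway were found by the distance between log2 ratios at 4 h and 24 h, over 3 libraries and among genes at or above the 75th percentile of the mean level. Nearest to the median of the 10 genes were Adprh, Tcp1, Sdccag3, Fam63b and Txndc9, at distances of 0.023 to 0.037. Nearest to Tap1 were Pla2g4a, Slc11a1, Mtpn, Stag1 and Ythdc1 (0.056 to 0.076); Slc11a1, the phagosomal metal transporter, had 3942, 8548 and 4580 normalized counts. Nearest to Nlrc5, a profile added after its values were seen, were Itpr1, Gpr35, Hif1a, Braf and Clec4d (0.068 to 0.15); Hif1a, the oxygen-sensing transcription factor, had 2655, 10053 and 1993. None of the genes named by likeness is in the related lists, and with 3 libraries a likeness rests on 2 log2 ratios per gene.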

How the data were processed

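RNA was measured by sequencing in 1 library per time point, with the time taken from the labels. The data are 3 tables of the authors, each of 2 libraries, made with DESeq2 on build mm10 per the submitters' processing notes; no aligner, counter, strand setting or annotation is named in the sources used here. The deposited signal values are read counts divided by a size factor of the pair of libraries. They were whole multiples of 1 step within 0.001 reads for 100% of values, so whole reads were recovered. The deposited log2 fold changes are shrunken, and the authors' mark of significance is theirs. A column headed 4 h in the table of 0 h and 24 h equalled the 0 h library in 12310 of 12310 genes; it is the 1 column of values assigned to no sample and served for this comparison alone, and 20 repeated rows were dropped. Deposited gene starts count from 0, since 6046 of 11401 lie 1 base before the RefSeq start and 436 on it, and are printed counted from 1.

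Levels are reads over median-of-ratios size factors (1.07, 0.788 and 1.22) over the 12481 genes with a value in all 3 libraries. Folds are plain ratios with exact Clopper-Pearson 95% counting intervals, and log2 ratios over lists use a pseudocount of 1. Ratios between 2 genes of a library have Woolf intervals. No count test was run, since there are no replicates. The script was tested on simulated data. Per-kilobase levels and overlaps used GENCODE M21, and motifs used RefSeq windows. From each related list, the 2 highest and 2 lowest ratios at 4 h and the widest at 24 h were eligible for naming, among genes with a mean of at least 100, plus some genes by name. Likeness was computed for the median and Tap1, and for Nlrc5 after its values were seen. The genes, lists and pairs were chosen with earlier results of these data known. Alternatives were scaling to total reads, to ribosomal protein genes or by TMM (edgeR 4.0.16, with no test), the deposited fold changes, a pseudocount of 10, a 1.5-fold threshold and a mean of at least 100. Python 3.11.15, numpy 2.4.6, pandas 2.3.3, scipy 1.17.1 and Biopython 1.88 were used.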

Additional observations from a re-analysis of the deposited data

How the results depend on the processing

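No paired analysis was possible because each time point has 1 library. Of 30 log2 ratios of the 10 genes, 10 changed sign with ribosomal protein scaling, all at 24 h, 2 with scaling to total reads, and 0 with TMM, the deposited fold changes, a pseudocount of 10 or a mean of at least 100. Those scalings moved the median of all genes, to -0.15, 0.16 and 0.32 (total reads) and to 0.05, -0.50 and -0.54 (ribosomal protein genes) for 4 h over 0 h, 24 h over 0 h and 24 h over 4 h. Scaled to total reads, the median log2 ratio of the 10 genes was 0.12, 0.30 and 0.24 in the same order. With ribosomal protein scaling it was -0.37 for 24 h over 0 h and -0.63 for 24 h over 4 h. There 1 and 3 of the 10 genes were called lower, beside 2813 of 12481 and 4123 of 12684 over all genes. With the deposited log2 fold changes the median was 0.21 at 4 h and -0.04 at 24 h against 4 h, as with TMM (-0.04), 1 gene (Nlrc5, without Tap1) was called higher at 4 h, and the change of the Psmb10 to Psmb7 ratio at 24 h was 0.42 rather than 0.58 (log2). At 1.5-fold, 1 of the 10 genes was called higher at 24 h against 0 h (1706 of 12481 over all genes). At 24 h against 4 h 3 were called lower at that threshold (3611 of 12684 over all genes).

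Over all genes, the calls higher and lower at 24 h against 0 h were 618 and 1136, and 899 and 890 scaled to total reads, 242 and 2813 scaled to ribosomal protein genes, 68 and 270 from the deposited values, 408 and 909 with a pseudocount of 10, 287 and 745 with a mean of at least 100, and 1706 and 2400 at 1.5-fold. At 24 h against 4 h they were 1823 and 2268, and 2937 and 1587, 825 and 4123, 913 and 1278, 1520 and 2024, 1201 and 1613, and 3327 and 3611 under the same alternatives. At 4 h against 0 h, 1906 and 1794 became 1109 and 1128 from the deposited values, 1277 and 1199 with a mean of at least 100, and 3173 and 2960 at 1.5-fold. Depth was no limit for the 10 genes, which had at least 1182 reads in each library; the single library per time point was.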
